A study of Homo sapiens with 4 samples.

Results

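The septins are a family of human genes, and the deposited table writes their names as calendar dates: 8-Sep is septin 8 (SEPTIN8), 6-Sep is septin 6 (SEPTIN6), 5-Sep is septin 5 (SEPTIN5), and 2-Sep, 7-Sep, 9-Sep and 11-Sep are septins 2, 7, 9 and 11. Each row was matched by its Ensembl gene identifier and never by the date. Of 28412 genes in the table, 21 carried a date as their name, and 10 of these were septin genes, while the others were March names. The 7 members described here are the septin rows that averaged 1 FPKM or more over all 4 libraries. They were chosen on the measured difference between sh-LDB1 and sh-NC in these same libraries, because it pointed opposite ways within the family, so their values are given as a description and with no test. The member with the lowest mean was SEPTIN5 at 1.46 FPKM, and the next septin row down was SEPTIN1 at 0.819 FPKM. Of the 13 human septin genes in the reference annotation, SEPTIN10, SEPTIN12 and SEPTIN14 were not analysed here.

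RNA-seq was performed on cells of a leukemia line labelled NB4, a promyelocytic line. The cells carried either the control vector sh-NC (2 libraries) or sh-LDB1, an shRNA vector that knocks down LDB1 (2 libraries), and both vectors were lentiviral. LDB1 is the adaptor protein of the transcription complex that contains LMO2. The study designed several shRNAs against LDB1, which of them was sequenced is not given in the sources used here, and no label says that the replicates came from separate cultures, so the spread between them may be technical. LDB1 itself measured 135.1 and 120.1 FPKM under sh-NC, and 10.2 and 9.47 FPKM under sh-LDB1.

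The septins are GTP-binding proteins that assemble into rods and filaments under the plasma membrane, at the cleavage furrow of dividing cells and along actin and microtubules. By sequence they fall into the SEPT2, SEPT6, SEPT7 and SEPT3 subgroups, and a rod takes a member of each of the first 3 of these, with or without a member of the SEPT3 subgroup. Members of a subgroup can stand in for each other at the same position, which is why the composition of a subgroup is given below beside the level of each gene. In leukemia the family is known because SEPTIN2, SEPTIN5, SEPTIN6, SEPTIN9 and SEPTIN11 occur as fusion partners of KMT2A (MLL).

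The values are FPKM, a count of fragments divided by gene length and by library depth, so levels of different genes can be set side by side. The FPKM of the 4 libraries had been divided by 14746656 to 16182673 reads, and reads per gene were recovered from these totals and a gene length. The annotated length gave whole reads for 50.3% of genes, SEPTIN2 and SEPTIN6 among them. For most others, the other 5 members included, a length between 0.4 and 2 times the annotated one was fitted so that reads came out whole, which raised the share to 98.2%. Reads of these genes are estimates that rest on the fitted length. Differences are sh-LDB1 minus sh-NC on the log2(FPKM + 1) scale, with the standard error (SE) of a limma fit over the 13300 genes that averaged 1 FPKM or more. A gene was called when its Benjamini-Hochberg adjusted p-value was below 0.05 and its fold change on this scale was above 2 or below 0.5. Among all tested genes 19.8% were called, 9.5% as higher and 10.3% as lower in sh-LDB1, and the median difference was -0.08. That is 1264 genes higher and 1371 lower, or 1602 and 1001 when every library was scaled to the same summed FPKM.

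Markers of the labelled cell type were checked first. None of the promyelocytic and granulocytic markers with a value reached 10 FPKM in sh-NC: ELANE, which encodes neutrophil elastase, was at 0 in both sh-NC libraries, and ANPEP, which encodes the myeloid surface antigen CD13, was at most 0.111 FPKM in any library. These were the lowest of the list, and LYZ was the highest, at 5.85 and 5.61 FPKM in sh-NC. Of the 7 markers with values, 4 were at 1 FPKM or more in every library, while MPO and CTSG were not analysed here. The summed level of the 7 was 11.2 and 10.5 FPKM in the controls, against 40.6 and 37.6 FPKM in the knockdown libraries. All 10 erythroid markers were above 10 FPKM in sh-NC, and they summed to 3949 and 4105 FPKM there, against 378 and 342 FPKM in the knockdown libraries. The megakaryocyte and platelet list summed to between 3.11 and 4.50 FPKM in every library, with PF4 at 0 in 3 of the 4 libraries. The lymphoid list summed to between 0.856 and 2.72 FPKM. The label NB4 is therefore used only as a label. The erythroid genes moved with the groups, as the septins did, and the part of this in the septin differences was not tested. In bulk RNA, fewer cells of a type and less RNA per cell cannot be told apart.

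In sh-LDB1 cells SEPTIN8 was at 29.0% and SEPTIN5 at 23.4% of the sh-NC level, while SEPTIN6 was at 197.5% and SEPTIN9 at 141.6%. SEPTIN11 was at 68.2%, SEPTIN2 at 114.9% and SEPTIN7 at 105.6%. So 4 of the 7 members were higher and 3 were lower in sh-LDB1, and SEPTIN6 and SEPTIN8, which belong to the same subgroup, lay at the ends of the family's range of log2(FPKM + 1) differences. These 7 directions were the same under both other scalings of the libraries that were tried. As deposited, the summed FPKM of all 10 septin rows was 121.5 ± 1.68 (SD, n = 2) in sh-NC and 121.9 ± 0.298 in sh-LDB1. For this unscaled sum the libraries of the groups overlapped, and its log2 ratio was 0.0041. That ratio became 0.18 with every library scaled to the same summed FPKM. It became 0.10 with the median ratio over tested genes made equal, so a flat total holds only for the values as deposited. Of the 7 members, SEPTIN8 and SEPTIN5 were called, both as lower, beside the 19.8% of all tested genes. SEPTIN5 averaged under 1 FPKM in sh-LDB1 and entered the test through its control level only. Under both other scalings SEPTIN6 was also called, as higher. The contrast chose the members, so nothing is read from this count.

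**Figure D1:**
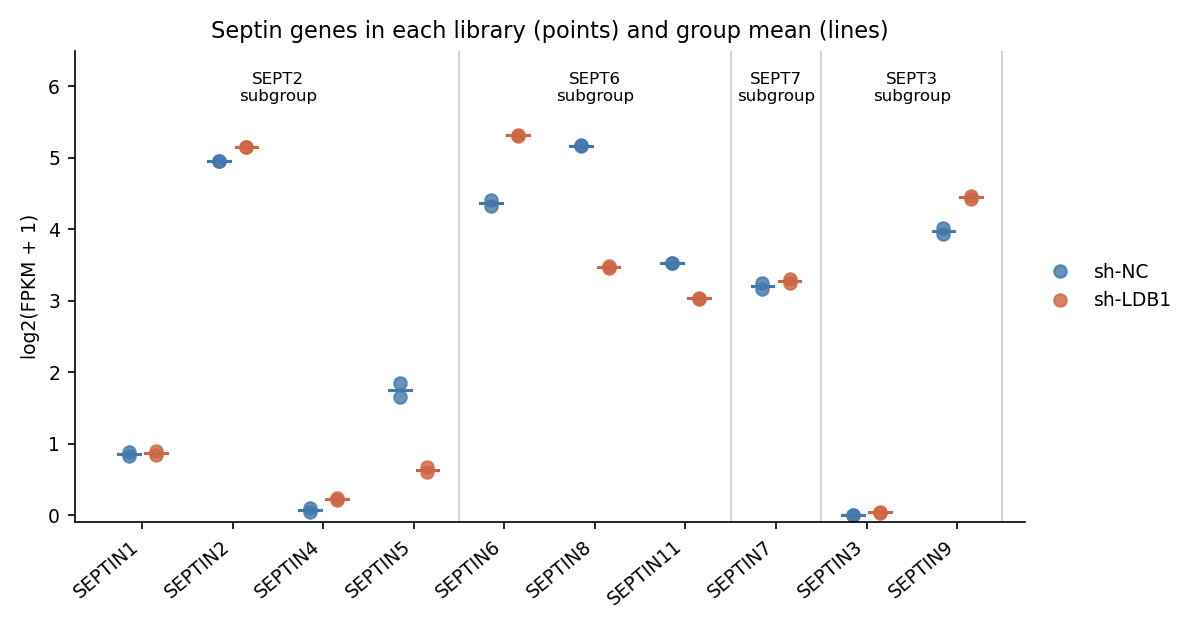
Level of each septin gene with a row in the table, in log2(FPKM + 1), with the genes set in order of sequence subgroup. Each point is 1 library (2 sh-NC in blue, 2 sh-LDB1 in orange) and each line is the mean of a group. SEPTIN8 is the highest septin in sh-NC and SEPTIN6 the highest in sh-LDB1, and SEPTIN1, SEPTIN3 and SEPTIN4 stay low in all 4 libraries.

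On the log2(FPKM + 1) scale, the SEPT6 subgroup held the largest difference in each direction, while SEPTIN5 had the lowest ratio of FPKM. SEPTIN8, which binds the vesicle protein VAMP2 in nerve terminals, measured 35.2 and 34.8 FPKM in the controls, but 10.03 and 10.3 FPKM after LDB1 knockdown. Both control libraries lay far above both knockdown libraries, and the replicates were within 0.5 FPKM of each other in either group. The difference was -1.69 (SE 0.043), lower than that of all but 2.34% of tested genes. It rested on 4398 and 3957 recovered control reads and on 1239 and 1197 knockdown reads.

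SEPTIN6, which gives the subgroup its name and is a partner in KMT2A fusions, measured 20.2 and 19.1 FPKM in the controls, and 38.7 and 38.97 FPKM after LDB1 knockdown. Both knockdown libraries were above both controls, by far more than the gap between replicates. The difference was 0.95 (SE 0.048), just short of the fold change of 2 on this scale, and 89.3% of tested genes had a smaller one. It was past that threshold, at 1.11, with every library scaled to the same summed FPKM, and at 1.04 with the median ratio over tested genes made equal. The reads behind it were 2045 and 1760 in the controls, and 3874 and 3683 in the knockdown libraries.

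SEPTIN11, the remaining member with a value, measured 10.5 and 10.6 FPKM in the controls, and 7.25 and 7.15 FPKM after knockdown. The groups did not overlap, and the difference of -0.50 (SE 0.049) had the sign of that of SEPTIN8 and a smaller size. In FPKM, the mean of SEPTIN8 was lower by 24.9 and that of SEPTIN11 by 3.36, while that of SEPTIN6 was higher by 19.2.

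The opposite differences also stood out in the share of each gene in the FPKM summed over SEPTIN6, SEPTIN8 and SEPTIN11. SEPTIN10 and SEPTIN14 also belong to this subgroup and were not analysed here, so sum and shares cover only a part of it. SEPTIN8 made up 53.4% and 53.9% of the sum in the controls, but 17.9% and 18.2% after knockdown. SEPTIN6 made up 30.7% and 29.6% in the controls, but 69.1% in both knockdown libraries, and SEPTIN11 went from 16.2% ± 0.338 (SD, n = 2) to 12.8% ± 0.188. Per SEPTIN6 there was thus 1.78 ± 0.056 times as much SEPTIN8 in sh-NC and 0.261 ± 0.003 times as much in sh-LDB1. This sum changed less than either SEPTIN8 or SEPTIN6: it was 66.01 and 64.5 FPKM in the controls and on average 56.2 FPKM after knockdown, a log2 ratio of -0.22. The size of this last value depends on how the libraries are scaled, and it shrank to -0.12 when the median ratio over tested genes was made equal and to -0.043 when every library was scaled to the same summed FPKM.

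**Figure D2:**
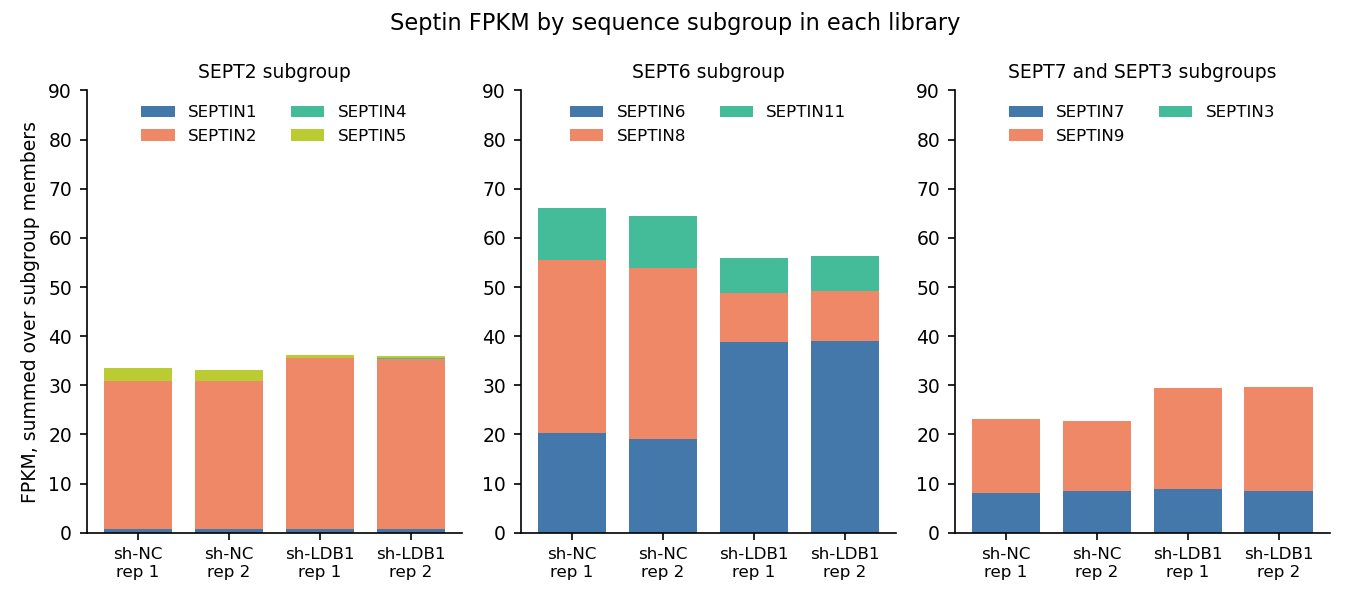
FPKM of the septin genes stacked by sequence subgroup, with 1 bar per library and the same vertical axis from 0 in each panel. In the SEPT6 subgroup SEPTIN8 is the largest block in both sh-NC libraries and SEPTIN6 is the largest in both sh-LDB1 libraries, while the whole bar goes from 65.3 to 56.2 FPKM on average.

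Genes this alike can share reads, so their coding sequences were compared, each from the transcript that the annotation tags as representative (MANE Select). SEPTIN6 and SEPTIN8 were identical at 73.2% of 1281 aligned bases, SEPTIN6 and SEPTIN11 at 75.7% of 1274, and SEPTIN8 and SEPTIN11 at 74.0% of 1287. Over the 7 members, pairs within a subgroup (4 pairs) ranged from 65.7% to 75.7%, and pairs across subgroups (17 pairs) from 57.8% to 66.2%. One stretch that all septins share is the P-loop, the motif that holds the phosphates of GTP. The 90 coding bases around it are shown for the 3 genes because a reader can see there how a read would tell them apart, with capitals at each position where the 3 differ.
SEPTIN6: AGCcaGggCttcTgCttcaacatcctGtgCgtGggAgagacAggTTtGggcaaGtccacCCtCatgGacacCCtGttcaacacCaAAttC
SEPTIN8: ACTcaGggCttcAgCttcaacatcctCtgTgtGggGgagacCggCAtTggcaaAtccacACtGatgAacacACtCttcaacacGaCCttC
SEPTIN11: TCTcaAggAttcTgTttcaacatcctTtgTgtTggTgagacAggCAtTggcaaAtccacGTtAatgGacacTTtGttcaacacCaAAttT
These are coding bases 112 to 201 of SEPTIN6, 118 to 207 of SEPTIN8 and 109 to 198 of SEPTIN11. Each window crosses an intron. On GRCh38 they span chrX:119663622-119675587 on the minus strand, chr5:132764364-132765442 on the minus strand and chr4:76996506-77005656 on the plus strand. The 3 sequences differed at 27 of the 90 positions, 6 of them among the 24 bases of the P-loop itself. Any pair differed at 19 or 20 positions.

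SEPTIN6 (chrX:119615724-119693370) and SEPTIN11 (chr4:76949751-77040384) share no exon base with another annotated gene. SEPTIN8 (chr5:132750819-132807241, minus strand) shares 14.9% of its exon bases with CCNI2 on the opposite strand, and whether the counting used strand is not given in the sources used here. The CCNI2 row itself measured 0.215 and 0.172 FPKM in the controls, and 0 and 0.084 FPKM after knockdown.

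In the SEPT2 subgroup the abundant member and a member of low measured level differed in opposite directions. SEPTIN2 (chr2:241315100-241354027), a widely expressed septin needed for cytokinesis in many cell types, measured 30.2 and 30.02 FPKM in the controls, and 34.7 and 34.4 FPKM after knockdown. The knockdown libraries lay above the controls by a small margin, with a difference of 0.19 (SE 0.039) that became 0.36 and 0.29 under the same scalings. It was the second most abundant septin in both groups and made up 90.3% of its subgroup's FPKM in sh-NC and 95.7% in sh-LDB1.

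SEPTIN5 (chr22:19714503-19724224), a septin best known from neurons and platelets, where it binds the secretory protein syntaxin, measured 2.59 and 2.14 FPKM in the controls, but 0.515 and 0.589 FPKM after knockdown. Every knockdown library lay below every control, and the difference was -1.11 (SE 0.137), the widest error of the 7 members. The level is low, and it rests on 193 and 145 control reads and on 38 and 41 knockdown reads. The scale understates it: with a pseudocount of 0.1 in place of 1 the difference was -1.91. The share of SEPTIN5 in the SEPT2 subgroup was 7.09% ± 0.892 in sh-NC and 1.53% ± 0.146 in sh-LDB1 (SD, n = 2).

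SEPTIN5 cannot be fully separated from its neighbour. GP1BB, which encodes a subunit of the platelet receptor for von Willebrand factor, starts inside the annotated SEPTIN5 gene on the same strand, and a readthrough transcript joins both. Together these cover 73.6% of the exon bases of SEPTIN5. How reads from shared bases were counted is not given in the sources used here. The low values of SEPTIN5, its share of the subgroup and its place in the order of levels may therefore not stand for the gene. The readthrough row (SEPT5-GP1BB) measured 0.331 and 0.276 FPKM in the controls, but 0.040 and 0.057 FPKM after knockdown, that is 25 and 19 reads against 3 and 4. It was thus lower in sh-LDB1 as the SEPTIN5 row was, but below the level needed for a test, and the GP1BB row was not analysed here. Added together, the SEPTIN5 and readthrough rows held 218 and 164 reads in the controls, but 41 and 45 reads after knockdown. ITGA2B, another gene of platelets, measured 2.01 and 1.59 FPKM in the controls, and 2.08 and 2.07 FPKM after knockdown.

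**Figure D3:**
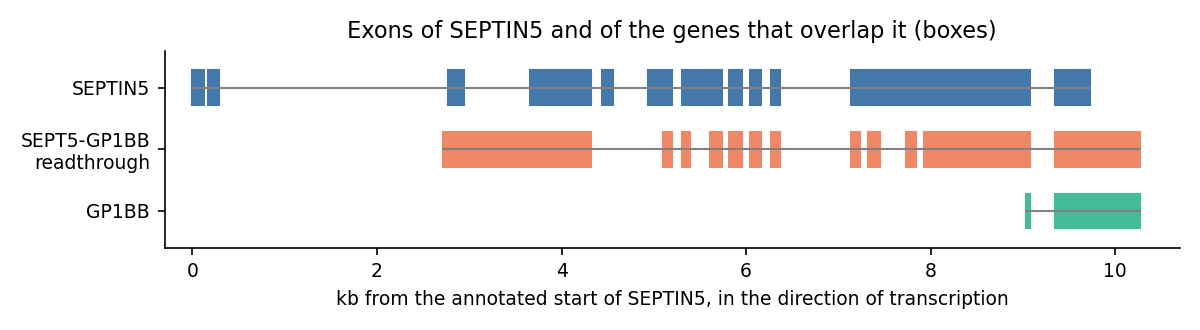
Annotated exons (boxes) of SEPTIN5, of the SEPT5-GP1BB readthrough and of GP1BB, merged over transcripts and placed by distance in kb from the start of SEPTIN5, with transcription from left to right. Most SEPTIN5 exon bases lie under a readthrough exon, so reads from them cannot be given to 1 gene only.

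SEPTIN1, a septin described in lymphocytes, and SEPTIN4, one of whose isoforms acts in apoptosis, complete the subgroup at low levels. SEPTIN1 measured 0.777 and 0.852 FPKM in the controls, and 0.784 and 0.862 FPKM after knockdown, with 53 to 55 reads in each library and overlapping groups. SEPTIN4 had 4 and 9 control reads against 20 and 22 knockdown reads, at most 0.181 FPKM. Both were under the level needed for a test.

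SEPTIN7 (chr7:35800932-35907110) is the only member of its subgroup, and rods of either kind need it. It measured 7.99 and 8.52 FPKM in the controls, and 8.91 and 8.54 FPKM after knockdown. The highest control and the lowest knockdown library nearly touched, and the difference of 0.07 (SE 0.059) was about as large as its error. It was 0.03 without sh-NC replicate 1, 0.11 without sh-NC replicate 2 and 0.23 with the libraries scaled to the same summed FPKM. SEPTIN7 has several pseudogenes with rows of their own, so its reads are uncertain. The highest of these rows was SEPTIN7P2. Its best local match to the whole SEPTIN7 transcript, untranslated parts included, was 95.7% identical over 823 bases. SEPTIN7P2 measured 2.09 and 2.49 FPKM in the controls, and 2.67 and 2.70 FPKM after knockdown. Of the 7 septin pseudogene rows, those of septin 14 included, the others were at or below 1.01 FPKM in every library.

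SEPTIN9 (chr17:77280569-77500596), the member of the SEPT3 subgroup that most tissues express and that lengthens the rod, measured 15.2 and 14.3 FPKM in the controls, and 20.6 and 21.1 FPKM after knockdown. Both knockdown libraries were higher, with a difference of 0.48 (SE 0.052) on 2700 to 4234 reads per library. SEPTIN3, the neuronal member, had 0 reads in both sh-NC libraries, where 3 reads would have been 0.026 and 0.028 FPKM, and 4 and 2 reads in sh-LDB1. As summed FPKM, the SEPT3 subgroup had a log2 ratio of 0.50 between the groups, the SEPT2 subgroup one of 0.12 and the SEPT7 subgroup one of 0.08.

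The order of the levels differed between the groups. In sh-NC it ran SEPTIN8, SEPTIN2, SEPTIN6, SEPTIN9, SEPTIN11, SEPTIN7, SEPTIN5 from the highest down, and in sh-LDB1 it ran SEPTIN6, SEPTIN2, SEPTIN9, SEPTIN8, SEPTIN7, SEPTIN11, with SEPTIN1 now above SEPTIN5. In either group each gene's 2 libraries lay apart from those of the next gene in the order. For all 7 members the sh-NC and sh-LDB1 libraries did not overlap, which held for 84.6% of all tested genes.

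**Figure D4:**
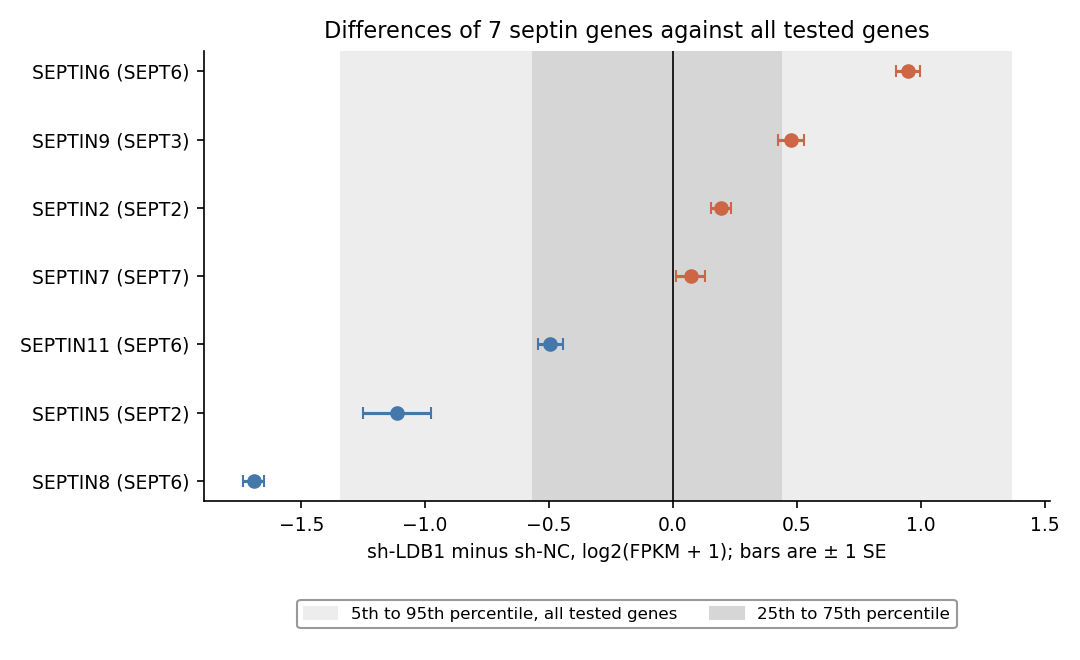
Difference of each septin (sh-LDB1 minus sh-NC, log2(FPKM + 1)) with its limma standard error, with the subgroup in brackets. The bands hold the middle 90% (light grey, -1.34 to 1.37) and the middle 50% (dark grey, -0.57 to 0.43) of the 13300 tested genes. SEPTIN8 lies below the light band, SEPTIN6 and SEPTIN5 lie inside it, and SEPTIN2, SEPTIN7 and SEPTIN11 lie within the dark band.

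To see which genes behaved most like the members at the ends of the range, the centred profile over the 4 libraries was compared with that of every tested gene. Nearest to SEPTIN8 were GLB1L2 (Euclidean distance 0.023), MPP1 (0.032), which encodes a scaffold protein of the red cell membrane, and MRPS25 (0.037), a mitochondrial ribosomal protein. Their mean levels went from 8.13 to 1.83, from 129.2 to 38.7 and from 27.0 to 7.86 FPKM. Nearest to SEPTIN6 were CTDSP1, CROCC and CDC37L1, each at a distance of 0.015. Such closeness is common with 4 libraries: 177 genes lay within 0.2 of SEPTIN8 and 598 within 0.2 of SEPTIN6.

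The promoters of the SEPT6 subgroup were read from the RefSeq promoter table (GRCh38.p14), as windows of 300 bases around each annotated start. Of the 13 human septins 10 matched in this table, and SEPTIN1, SEPTIN3 and SEPTIN5 did not. The words searched on both strands are those bound by the GATA and E-box factors with which LDB1 forms complexes: the GATA words AGATAA and TGATAA, then the E-box words CAGATG and its relative CAGCTG, and last a spaced pair, which is CTG followed by GATAA with 7 bases between. The spaced pair can overlap a match of either GATA word. SEPTIN6 has 1 window, and SEPTIN8 has 2, of which the window with a match is shown, with the match in capitals.
SEPTIN6 promoter: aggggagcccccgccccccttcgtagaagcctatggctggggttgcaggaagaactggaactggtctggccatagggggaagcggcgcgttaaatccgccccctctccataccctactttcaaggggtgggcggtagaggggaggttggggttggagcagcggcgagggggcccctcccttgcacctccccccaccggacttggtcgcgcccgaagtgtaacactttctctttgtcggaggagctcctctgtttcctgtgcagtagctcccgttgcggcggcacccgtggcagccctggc
SEPTIN8 promoter: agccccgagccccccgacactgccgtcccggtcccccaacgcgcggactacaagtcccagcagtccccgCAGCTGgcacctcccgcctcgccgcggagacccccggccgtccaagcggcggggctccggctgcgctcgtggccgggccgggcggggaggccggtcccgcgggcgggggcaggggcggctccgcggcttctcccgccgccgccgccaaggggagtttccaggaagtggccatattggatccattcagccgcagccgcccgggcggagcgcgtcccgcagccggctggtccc
They lie at chrX:119693119-119693418 and chr5:132777190-132777489, both on the minus strand. The window of SEPTIN6 held none of the words, that of SEPTIN8 held CAGCTG, and that of SEPTIN11 held CAGATG. Among all 35116 windows, CAGCTG occurred in 17.9%, CAGATG in 14.7%, AGATAA in 10.3%, TGATAA in 7.53% and the spaced pair in 0.669%. SEPTIN9 has 10 windows, of which 4 held CAGCTG, 1 of these also held CAGATG, and another window held both AGATAA and TGATAA. The windows of SEPTIN2 and SEPTIN7 held none. A match only says that these letters are present.

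The genes beside the septins were tested, since position had no part in the choice of members. Of the 14 nearest tested genes, 1 on each side of each member, 12 were not called and 2 were called as lower (limma, Benjamini-Hochberg adjusted over all tested genes), which is 14.3% beside 19.8% of all tested genes. The distances ran from 2.26 kb (FARP2, SEPTIN2) to 715.2 kb (SCARB2, SEPTIN11), so genes that were not tested can lie between. Both called genes are the nearest tested ones to SEPTIN5, with CDC45 193.9 kb away and TBX1 32.5 kb away on the other side. CDC45, a replication factor needed to start DNA synthesis, fell from 113.3 and 115.3 FPKM to 25.8 and 25.3 FPKM (difference -2.12, SE 0.039, adjusted p = 6.77e-05). TBX1, a T-box transcription factor, fell from 9.48 and 10.3 FPKM to 2.63 and 2.23 FPKM (difference -1.67, SE 0.089, adjusted p = 2.24e-04). The neighbours of SEPTIN8 were not called: KIF3A, 13.2 kb away, measured 2.90 and 2.99 FPKM in the controls, and 4.97 and 4.39 FPKM after knockdown, and SHROOM1, 14.9 kb away on the other side, measured 13.2 and 12.5 FPKM against 13.9 and 13.99 FPKM. Nor were those of SEPTIN6: NKRF measured 9.81 and 10.4 FPKM against 5.32 and 5.33 FPKM (difference -0.81), and RPL39 had a difference of -0.54.

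Genes whose products work with septins were described from lists of binding partners and of the machineries that septins serve. These lists were drawn up with earlier results of these data known. Of 51 listed genes 43 could be tested, of which 4 were called as higher and 7 as lower, that is 25.6% beside 19.8% of all tested genes, with a median difference of 0.08 against -0.08 over all tested genes. When limma's treat tested against a fold change of 2 itself, CDC42EP1, CDC42EP5 and MYH10 were still called, and CDC42EP4, CIT, KIF23, PLK1, KIF20A, MYL9, SOCS7 and CENPE were not. CDC42EP5 is counted among those called as higher, but it entered the test only through its level in sh-LDB1. Its calls, with treat too, therefore carry no weight.

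The CDC42EP (Borg) proteins bind septins directly and link them to the GTPase CDC42. The 3 tested members of this list were called, in opposite directions, beside 19.8% of all tested genes. However, CDC42EP5 averaged under 1 FPKM in sh-NC and entered the test only through its level in sh-LDB1, so it had to differ. CDC42EP1 fell from 40.6 and 41.9 FPKM to 6.45 and 7.60 FPKM (difference -2.40, SE 0.083, limma adjusted p = 1.11e-04). CDC42EP4 rose from 9.50 and 8.87 FPKM to 22.3 and 20.9 FPKM (difference 1.15, SE 0.062, limma adjusted p = 2.27e-04). CDC42EP5 rose from 3 and 0 reads in the controls to 62 and 69 reads after knockdown, where it stood at 4.29 and 5.05 FPKM (difference 2.36, SE 0.156). With so few control reads the pseudocount sets the size of this difference, which ranged from 2.23 to 6.65 over the alternatives. Of the 3, CDC42EP1 was thus the most abundant in the controls and CDC42EP4 in the knockdown libraries. The groups did not overlap for any of them, which held for 84.6% of all tested genes. CDC42EP2 and CDC42EP3 were below 0.5 FPKM in every library. The CDC42 row was at 0.358 to 0.572 FPKM, but 14.7% of its exon bases are shared with other genes on the same strand, and how such reads were counted is not given in the sources used here, so this value may not stand for the level of CDC42.

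Septins act at the cleavage furrow, where the scaffold anillin (ANLN) anchors them. Of 12 tested cytokinesis genes none rose and 4 fell past the fold threshold, beside 10.3% of all tested genes: CIT, KIF23, PLK1 and KIF20A. The median difference of the list was -0.57 against -0.08 for all tested genes, and without the fold threshold 10 of the 12 had an adjusted p-value below 0.05 and a lower level, and 1 a higher level. By that rule 37.4% of all tested genes were lower and 29.9% higher. PLK1, a mitotic kinase, fell from 31.7 and 34.1 FPKM to 12.5 and 14.02 FPKM (difference -1.25, SE 0.075, limma adjusted p = 3.01e-04). KIF23, a kinesin of the central spindle, fell from 8.64 and 9.83 to 3.23 and 3.64 FPKM, and CIT, the citron kinase of the midbody, from 9.98 and 9.84 to 3.92 and 3.82 FPKM. KIF20A fell from 26.1 and 30.3 to 12.6 and 13.04 FPKM, but it was no longer called without sh-NC replicate 2 or under either other scaling of the libraries, and its smallest difference among these was -0.91. ANLN itself measured 13.6 and 14.3 FPKM in the controls, and 9.89 and 10.3 FPKM after knockdown, a difference of -0.44 (SE 0.054) that did not reach the fold threshold.

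Septin filaments also serve as a scaffold for nonmuscle myosin. Of 8 tested myosin and ROCK genes 1 rose and 1 fell, which is 25% beside 19.8% of all tested genes. MYH10, the heavy chain of nonmuscle myosin IIB, fell from 31.99 and 32.5 FPKM to 7.62 and 7.83 FPKM (difference -1.93, SE 0.045, limma adjusted p = 7.21e-05). MYH9, the heavy chain of nonmuscle myosin IIA, measured 56.1 and 54.5 FPKM in the controls, and 83.2 and 82.9 FPKM after knockdown, a difference of 0.58 that was under the fold threshold. MYL9, a regulatory light chain, rose from 1.18 and 0.913 FPKM to 4.58 and 3.54 FPKM (difference 1.30, SE 0.147, limma adjusted p = 1.77e-03).

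In secretion, none of the 8 tested exocyst subunits and none of the 6 tested SNARE genes was called by limma with the fold threshold, while at an adjusted p-value below 0.05 alone 7 exocyst genes (5 higher, 2 lower) and 4 SNARE genes (3 higher, 1 lower) passed, beside 67.4% of all tested genes. EXOC8 came closest, at 5.37 and 5.89 FPKM in the controls, and 12.6 and 11.6 FPKM after knockdown. VAMP2, the partner of SEPTIN8, measured 7.72 and 8.32 FPKM in the controls, and 9.32 and 9.61 FPKM after knockdown (difference 0.22). Of 5 other tested binders 1 was called as higher and 1 as lower, which is 40% beside 19.8% of all tested genes. SOCS7, an adaptor that binds septins and NCK1, rose from 4.90 and 4.42 to 12.3 and 12.04 FPKM (difference 1.22, SE 0.066, limma adjusted p = 2.31e-04). CENPE, a kinetochore motor reported to sit on septins in mitosis, fell from 8.26 and 9.21 to 3.30 and 3.23 FPKM (difference -1.19, SE 0.074, limma adjusted p = 3.27e-04). KMT2A, the fusion partner of 5 of the septins, measured 4.61 and 4.60 FPKM in the controls, and 5.40 and 4.91 FPKM after knockdown, and was not called.

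**Figure D5:**
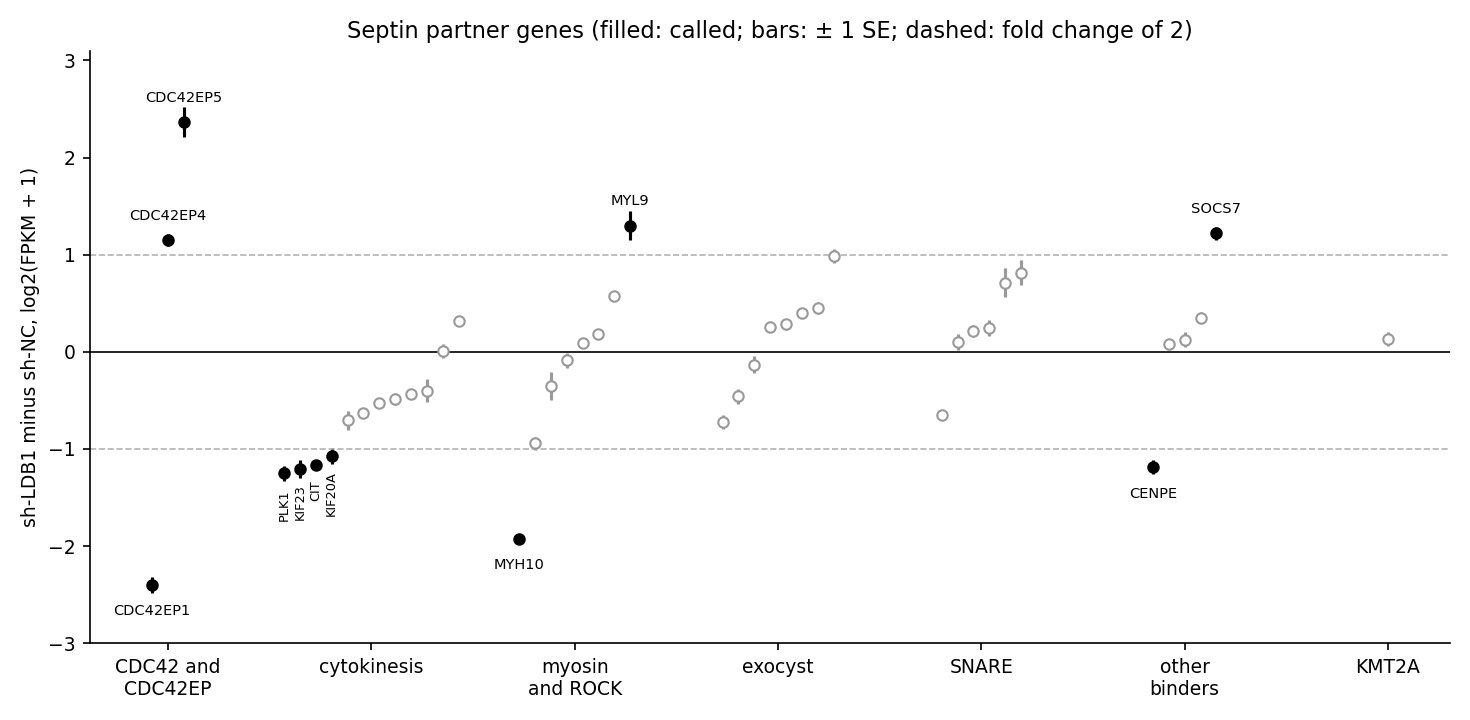
Difference (sh-LDB1 minus sh-NC, log2(FPKM + 1)) of each tested gene in the septin partner lists, with bars of 1 standard error. Filled points are called genes and carry their names, open points are not called, and dashed lines mark a fold change of 2. The 3 CDC42EP genes split in direction, the 4 called cytokinesis genes all lie below 0, and no exocyst or SNARE gene is filled.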

How the data were processed

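RNA-seq of 4 libraries was used, 2 sh-NC and 2 sh-LDB1, grouped by their titles. The authors mapped reads with HISAT2 2.0.5 to hg38 (submitters' processing notes) and deposited one FPKM table. The counting tool, annotation and use of strand were not given in the sources used here. There were 0 columns of no sample. Here, genes that averaged 1 FPKM or more were fitted as log2(FPKM + 1) with limma 3.58.1 in R 4.3.3 (eBayes with trend, Benjamini-Hochberg adjustment). The fit was tested on simulated data. Reads per gene were recovered, within 0.02 of a read plus 4e-06 per read, with the GENCODE 44 length (28193 of 28412 genes found) or, where that gave no whole reads, a fitted one, using Python 3.11.15, numpy 2.4.6 and pandas 2.3.3. Coding sequences were aligned with Biopython 1.88, in place of a planned comparison of proteins. Precision rests on 2 libraries per group. Intervals are not given, and the limit for 0 reads covers counting error only.

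The members and lists were chosen with earlier results of these data known. Named genes were all septins with a row, LDB1, overlapping and neighbouring genes, the CDC42EP list, the called genes of smallest adjusted p-value in each list (up to 3 per direction), and the 3 nearest profiles. Named beyond this rule, after their values were seen, were KIF20A, ANLN, MYH9, EXOC8, VAMP2, ITGA2B, CCNI2, KMT2A and the markers given as checks. The alternatives were other pseudocounts, scalings, filters, thresholds, a replicate block and leaving out each library.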

Additional observations from a re-analysis of the deposited data

How the results depend on the processing

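None of the 7 septins changed direction under the 9 alternatives run for them. The SEPTIN6 difference minus the SEPTIN8 difference was 2.64, and 2.61 to 2.67 with 1 library left out. It became 2.76 with a pseudocount of 0.1 and 2.77 with 0.01. Scaling every library to the same summed FPKM moved the median of all tested genes by 0.14, and the median of ratios over tested genes moved it by 0.08. Under these 2 scalings the log2 ratio of the subgroup sums was 0.29 and 0.22 for the SEPT2 subgroup (0.12 as deposited), -0.043 and -0.12 for the SEPT6 subgroup (-0.22), 0.25 and 0.18 for the SEPT7 subgroup (0.08, and 0.03 to 0.13 with 1 library left out), 0.68 and 0.60 for the SEPT3 subgroup (0.50) and 0.18 and 0.10 for all septins (0.0041, and -0.0099 to 0.018 with 1 library left out). SEPTIN6 then differed by 1.11 and 1.04, past the fold threshold. All genes called as higher and lower numbered 1264 and 1371, or 3983 and 4978 with no fold threshold and 568 and 581 with limma's treat against a fold change of 2. With treat, 1 partner gene was higher (CDC42EP5, which entered the test through sh-LDB1 only) and 2 were lower, and SEPTIN5 was no longer called. With no fold threshold, 16 were higher and 17 lower. With at least 1 FPKM in every library 2 were higher, since fewer genes were tested.

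The replicate numbers are shared by the groups, but with 2 pairs and a correlation of their deviations of 0.02 they were not taken as pairing. With a replicate block 4 partner genes were higher and 7 lower, and of all genes 1274 and 1386. Depth limits SEPTIN1, SEPTIN3 and SEPTIN4, which had 0 to 55 reads per library.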
